A study of Mus musculus with 15 samples.

Results

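The phagocyte NADPH oxidase is the enzyme with which neutrophils, monocytes and macrophages make superoxide. Its subunits Cybb, Cyba, Ncf1, Ncf4 and Rac2 were followed here over 5 groups of mouse myeloid cells. The 5 genes were chosen by name, as probe sets of an Affymetrix array that carry a single gene symbol, out of 22180 genes with such a probe set. Each of the 5 has 1 probe set, and all 5 passed the filter on low values, so none is missing from what follows.

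Of the 15 arrays, 3 held myeloid-derived suppressor cells (MDSC), which are Ly6C+CD11b+ cells that C57Bl/6 marrow gives in culture with IL-13 and the growth factors GM-CSF and G-CSF. The other 12 arrays held spleen cells of G-CSF-treated mice, in which progenitors and myeloid cells leave the marrow. Their cells were sorted as CD11b+CD34+ and negative for CD4, CD8, Ly6G, B220 and Ter119. The GFE arrays (n = 3) held such C57Bl/6 cells after 3 days in Flt3 ligand and SCF. The GFK arrays (n = 3) held cells from mice labelled iNOS knockout, with the strain given as C57Bl/6. The RB and the GFW arrays (n = 3 each) carry identical C57Bl/6 labels and have different codes in their titles. The labels give no age, sex or dose. Nothing in them says that the replicates of a group came from different mice, so a p value reflects only the spread among the arrays, part or all of which may be technical. GFE, GFK and GFW share a title prefix, whereas RB and MDSC each have a prefix of their own, so for RB and MDSC the prefix and the cells cannot be told apart.

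Values are log2 signals, and 14822 genes were tested. A gene is called where limma's adjusted p is under 0.05. Array medians lay between 5.52 and 5.72 log2. Nos2, the gene of iNOS, did not have a lower signal in the group labelled knockout. It stood at 8.84, 8.91 and 8.92 on the GFK arrays, against 8.09, 8.32 and 8.43 on the GFW arrays (difference 0.61 log2, limma adjusted p = 0.0125). That difference was not called without GFK replicate 3 (0.60, adjusted p = 0.0539) or GFW replicate 1 (0.52, adjusted p = 0.0587), nor in a fit of these 6 arrays alone (adjusted p = 0.0960). The part of the transcript read by its probe set is not given in the sources used here, and a deletion outside that part would leave the signal, so these values do not check the label. The GFK arrays are named by their label throughout. The markers of the sort differed widely between the groups. Ly6g averaged 12.08 ± 0.049 on GFK and 12.19 ± 0.030 on GFW arrays (SD, n = 3 each), against 6.28 ± 0.098 on RB and 5.80 ± 0.031 on MDSC arrays, although Ly6G+ cells were to be removed. Itgam, which encodes CD11b, averaged 7.94 ± 0.11 after culture and 11.67 ± 0.047 on GFW arrays (SD, n = 3 each). Cd34, the progenitor antigen that was selected for, averaged 11.28 ± 0.029 on GFE, 7.27 ± 0.26 on GFK, 5.92 ± 0.11 on RB and 7.19 ± 0.20 on GFW arrays, and 6.88 ± 0.30 on MDSC arrays, which were not sorted for it by their labels.

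In the resting phagocyte, the flavocytochrome of Cybb (gp91phox, also called NOX2) and Cyba (p22phox) sits in the membrane, while p47phox (Ncf1) and p40phox (Ncf4) wait in the cytosol. On a stimulus, p47phox is phosphorylated and docks on p22phox, and the GTPase Rac2 joins from the cytosol. Electrons then pass from NADPH through gp91phox to oxygen. Loss of a subunit causes chronic granulomatous disease, and myeloid suppressor cells are known to use the oxidase against T cells.

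Cybb varied most over the arrays, and Ncf1 least, so the start regions of these genes are shown, with Cyba as the membrane partner of Cybb. They run from 250 bases before to 50 bases after the annotated start (RefSeq, build GRCm38.p6, minus strand: chrX:9469275-9469574 for Cybb, chr8:122432891-122433190 for Cyba, chr5:134229576-134229875 for Ncf1). Ncf4 and Rac2, both on chromosome 15, have no entry in the table used. Capitals mark matches, on either strand, to GAGGAA (a core bound by ETS factors such as PU.1), CCAAT and GGGCGG (a GC box).
Cybb: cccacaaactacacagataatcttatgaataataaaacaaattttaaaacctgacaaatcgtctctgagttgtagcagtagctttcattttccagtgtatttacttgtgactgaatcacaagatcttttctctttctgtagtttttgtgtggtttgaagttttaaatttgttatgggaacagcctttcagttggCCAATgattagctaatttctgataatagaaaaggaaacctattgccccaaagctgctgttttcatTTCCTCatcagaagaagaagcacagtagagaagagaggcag
Cyba: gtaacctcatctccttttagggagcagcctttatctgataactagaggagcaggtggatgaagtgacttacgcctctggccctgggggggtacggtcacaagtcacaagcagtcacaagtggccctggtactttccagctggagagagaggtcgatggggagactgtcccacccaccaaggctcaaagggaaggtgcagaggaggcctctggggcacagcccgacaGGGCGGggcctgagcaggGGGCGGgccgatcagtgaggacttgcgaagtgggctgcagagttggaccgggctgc
Ncf1: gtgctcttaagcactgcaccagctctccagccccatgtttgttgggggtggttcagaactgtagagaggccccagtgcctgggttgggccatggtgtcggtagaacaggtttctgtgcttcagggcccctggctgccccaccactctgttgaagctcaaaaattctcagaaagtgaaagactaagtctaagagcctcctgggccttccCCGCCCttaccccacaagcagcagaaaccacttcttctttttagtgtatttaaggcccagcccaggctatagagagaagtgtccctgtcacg
The Cybb window holds 1 GAGGAA match on the opposite strand, at bases 10 to 15 from the start, and a CCAAT match at bases -56 to -52. The Cyba and Ncf1 windows hold neither GAGGAA nor CCAAT. Cyba has GC boxes at bases -24 to -19 and -6 to -1, and Ncf1 has 1 on the opposite strand at bases -42 to -37. Of 32851 RefSeq windows of the same length, 28.3% hold GAGGAA, 37.4% CCAAT and 35.7% GGGCGG. GC content was 35.3% for Cybb, 60.7% for Cyba and 54% for Ncf1, against a median of 52.7% over all windows. A match is a description of letters and not a bound site.

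Cybb, the catalytic subunit, separated all 5 groups. It stood at 10.83, 10.92 and 10.89 log2 on the MDSC arrays, 7.83, 7.96 and 7.94 on the GFE arrays, 10.42, 10.45 and 10.70 on the GFK arrays, 11.79, 11.72 and 11.87 on the RB arrays, and 9.74, 9.88 and 9.90 on the GFW arrays. From high to low the order was RB, MDSC, GFK, GFW and GFE, no neighbouring groups overlapped, and each neighbouring pair was called (limma adjusted p at most 0.0063). The range over the 15 arrays was 4.04 log2. Calls between neighbours are to be read against the share of all genes called between the same groups, which was 48.1% for MDSC and RB, 60.9% for MDSC and GFK, 1.61% for GFK and GFW, 67.0% for GFE and GFW, 62.2% for MDSC and GFW, 50.5% for GFK and RB, 54.1% for GFE and RB, 65.8% for GFE and GFK, 52.4% for RB and GFW, and 35.5% for MDSC and GFE. In bulk samples like these, fewer cells that express a gene and less of its RNA per cell cannot be told apart.

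Cyba, whose product p22phox holds gp91phox in the membrane and offers the docking site for p47phox, followed another order. It stood at 11.32, 11.27 and 11.35 log2 on the MDSC arrays, 10.11, 10.36 and 10.24 on the GFE arrays, 11.22, 11.15 and 11.25 on the GFK arrays, 10.78, 10.92 and 10.61 on the RB arrays, and 11.23, 11.28 and 11.31 on the GFW arrays. MDSC, GFW and GFK formed an upper set whose neighbours overlapped and were not called (limma adjusted p = 0.747 and 0.879). RB lay below them and GFE lower still, with both of these steps called.

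Ncf1, the organiser p47phox, moved least, with a range of 0.76 log2 over the arrays. Its signal was 9.95, 9.85 and 9.97 log2 on the MDSC arrays, 9.66, 9.79 and 9.63 on the GFE arrays, 9.89, 9.85 and 9.89 on the GFK arrays, 9.21, 9.46 and 9.63 on the RB arrays, and 9.61, 9.63 and 9.55 on the GFW arrays. From high to low the means ran MDSC, GFK, GFE, GFW and RB, and no neighbouring pair was called (limma adjusted p from 0.147 to 0.724). The RB arrays had the widest spread (SD 0.21, n = 3) and overlapped the GFW arrays.

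Ncf4, which encodes p40phox, a subunit that binds a lipid of the phagosome membrane, was highest on the GFK and GFW arrays. It stood at 9.47, 9.68 and 9.43 log2 on the MDSC arrays, 8.67, 8.56 and 8.68 on the GFE arrays, 10.47, 10.48 and 10.52 on the GFK arrays, 10.01, 9.82 and 9.77 on the RB arrays, and 10.28, 10.56 and 10.44 on the GFW arrays. GFK and GFW overlapped (limma adjusted p = 0.898), and below them came RB, MDSC and GFE without overlap. Each of these lower steps was called, with adjusted p of 4.72e-04 for GFW and RB, 0.0176 for RB and MDSC, and 6.86e-06 for MDSC and GFE.

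Rac2, the blood-cell Rac GTPase, had its highest values on the same arrays. It stood at 11.81, 11.85 and 11.81 log2 on the MDSC arrays, 11.52, 11.59 and 11.58 on the GFE arrays, 12.62, 12.64 and 12.76 on the GFK arrays, 11.86, 12.08 and 11.88 on the RB arrays, and 12.67, 12.75 and 12.71 on the GFW arrays. GFW and GFK overlapped, and RB and MDSC, which did not overlap, were not called apart (limma adjusted p = 0.331). The lowest of the 5 groups was GFE for Cybb, Cyba, Ncf4 and Rac2, and RB for Ncf1.

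**Figure D1:**
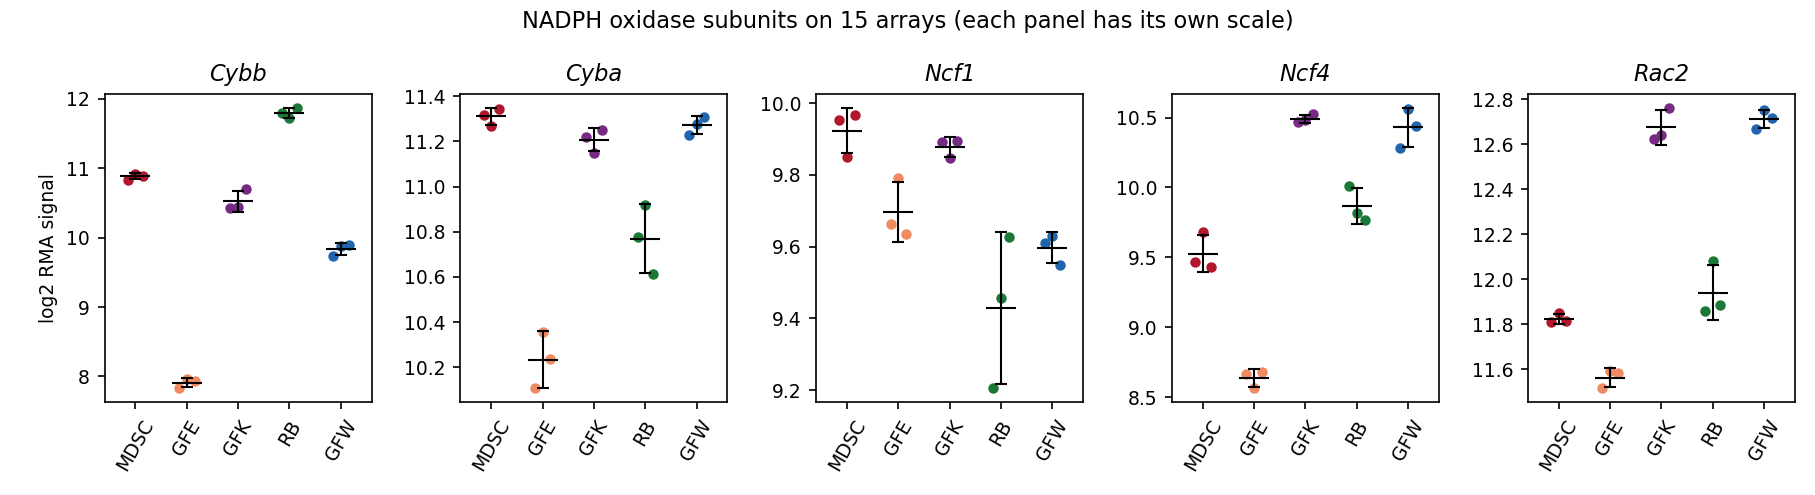
Log2 RMA signal of each subunit on the 15 arrays, by group (points are arrays, bars the group mean and SD of n = 3; each panel has its own vertical scale). Cybb spans 4.04 log2 from GFE to RB arrays, whereas all Ncf1 arrays lie within 0.76 log2.

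The culture of mobilised cells was compared with the uncultured GFW cells of the same title prefix to ask how 3 days in Flt3 ligand and SCF change them. Cybb fell to 7.91 ± 0.069 after culture, against 9.84 ± 0.086 on GFW arrays (SD, n = 3 each), which is 3.81-fold lower (difference -1.93 log2, SE 0.10, limma adjusted p = 1.45e-10). Ncf4 was 3.46-fold lower (-1.79, SE 0.11, adjusted p = 7.13e-10), Rac2 2.22-fold (-1.15, SE 0.093, adjusted p = 2.32e-08) and Cyba 2.05-fold (-1.04, SE 0.10, adjusted p = 2.21e-07). Ncf1 was not called, at 9.70 ± 0.084 after culture and 9.60 ± 0.043 on GFW arrays (0.10, 95% interval -0.13 to 0.33, adjusted p = 0.421). So 4 of 5 subunits were called lower, where 31.9% of all genes tested were called lower and 35.1% higher. Of all genes, 9.68% had a larger difference in size than Cybb.

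The same calls stood in a fit of the 9 arrays with the shared prefix alone, which was chosen after the data were seen. Taking each array minus its median moves the median of all genes by 0.14 log2, and raises the share of higher among all calls to 63.8%, against 52.3% on the values as deposited. The subunits' calls did not change under it.

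Genes that act with the oxidase were grouped in lists. Receptors that trigger the burst fell furthest after culture, with 13 of 13 members called lower and a median of -3.73 log2, against -0.06 over all genes. The largest differences were those of the chemokine receptor Cxcr2 (-7.17), the beta-glucan receptor Clec7a (-7.04 or below), the formyl peptide receptor Fpr2 (-6.31) and the IgG receptor Fcgr4 (-5.94 or below). Further members were the complement receptor C5ar1 (-5.87 or below), the IgG receptor Fcgr3 (-4.15), Itgam (-3.73) and its partner chain Itgb2 (-2.52). For Clec7a, Fcgr4 and C5ar1 the cultured cells lay near background, so these values are bounds. Fpr2 lay just above that limit after culture (mean percentile 40.6) and spread widely, at 5.46, 6.84 and 4.20 on the GFE arrays, so its difference is imprecise. Of the other subunits and small GTPases, 3 of 4 were called lower (median -0.71), namely Rap1b at -1.10, the gp91phox chaperone Cybc1 at -0.90 and Rac1 at -0.52. Rac1 averaged 11.16 ± 0.089 after culture and 11.68 ± 0.066 on GFW arrays (SD, n = 3 each).

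Upstream enzymes moved both ways after culture. Of the kinases and lipid enzymes that activate the oxidase, 3 of 16 were called higher and 9 lower (median -0.36). The phosphoinositide 3-kinase subunits Pik3r5 (-2.22) and Pik3cd (-1.72) and the kinases Syk (-1.41) and Mapk14 (-0.91) fell, while the phospholipase Pla2g4a was 2.95 higher. Of the factors that regulate Rac, 1 of 11 was called higher and 7 lower (median -0.44), with Arhgap25, an activator of GTP hydrolysis by Rac, at -1.81 and the exchange factors Prex1 at -1.52, Tiam2 at -0.97 and Vav1 at -0.68.

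Of the factors known to bind subunit promoters, 5 of 15 were called higher after culture and 7 lower (median -0.23), where 35.1% of all genes were called higher and 31.9% lower. Spi1, which encodes PU.1, averaged 9.76 ± 0.061 after culture and 11.38 ± 0.019 on GFW arrays (SD, n = 3 each), a difference of -1.62 log2. Cebpb (-1.97), Irf8 (-1.90) and Irf1 (-1.78) fell as well. Meis1 (3.52) and Hoxa9 (3.16), homeobox factors of progenitors, and Elf1 (0.69), an ETS factor, were higher.

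Cell type markers moved beside these genes. All 8 neutrophil markers were called lower after culture, with a summed linear signal of 461 to 519 on GFE arrays, against 34253 to 35964 on GFW arrays, and Ly6g, Retnlg and Camp ranked under the 40th percentile after culture. Of 8 monocyte markers 7 were lower and 1 higher, with summed signals of 938 to 1051 on GFE arrays and 7521 to 8265 on GFW arrays. Of 7 macrophage markers 6 were lower and 1 higher, with sums of 2275 to 2503 on GFE arrays and 5264 to 5566 on GFW arrays. Of 6 progenitor markers 4 were higher and 1 lower, with sums of 6068 to 6396 on GFE arrays and 3174 to 3503 on GFW arrays. The part of these shifts in the subunit results was not tested.

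**Figure D2:**
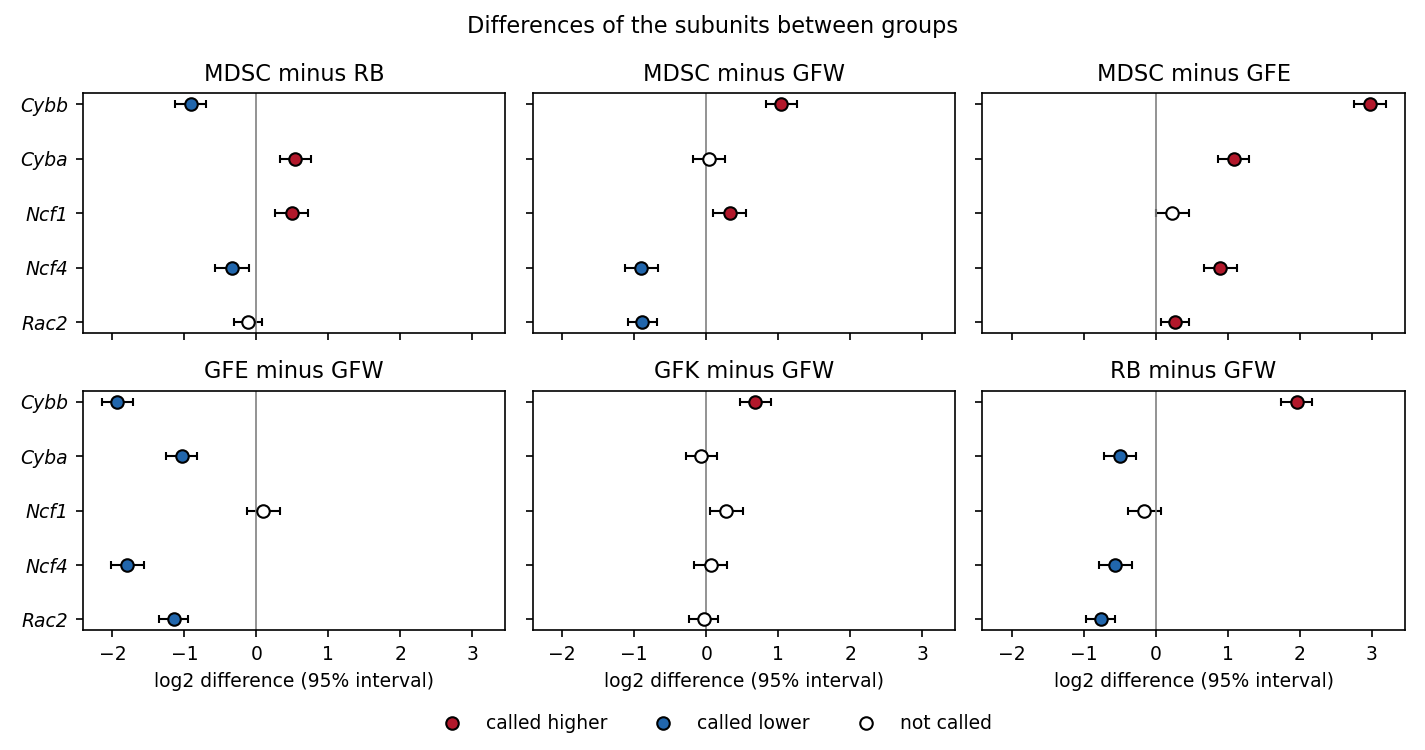
Log2 difference of each subunit in 6 comparisons (points, with limma's 95% interval; red called higher, blue called lower, white not called). In GFE minus GFW 4 subunits lie below 0, whereas in RB minus GFW Cybb lies at 1.95 and Cyba, Ncf4 and Rac2 below 0.

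The arrays labelled iNOS knockout were set against GFW to ask whether the subunits differ in cells labelled as lacking iNOS. Cybb was the 1 of 5 subunits called, where 1.61% of all genes were called, 1.30% higher and 0.317% lower. It averaged 10.52 ± 0.15 on GFK arrays and 9.84 ± 0.086 on GFW arrays (SD, n = 3 each), 1.60-fold higher (0.68 log2, SE 0.10, limma adjusted p = 0.00208), and 1.52% of genes had a larger difference in size. Ncf1 was 0.28 higher without overlap but was not called (95% interval 0.05 to 0.51, adjusted p = 0.283). For Cyba (-0.07, interval -0.28 to 0.15), Ncf4 (0.06, -0.17 to 0.29) and Rac2 (-0.04, -0.24 to 0.16) the arrays overlapped and the intervals include 0.

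The Cybb call was lost in a fit of the 6 GFK and GFW arrays alone (adjusted p = 0.0706), with the same difference, and against a 1.5-fold difference (adjusted p = 1). It held without each array in turn. Among the promoter-binding factors Irf1, which interferon gamma induces, was the 1 of 15 called, at 9.94 ± 0.027 on GFK and 9.15 ± 0.068 on GFW arrays (0.79 log2, adjusted p = 0.00281), while Spi1 (-0.09) and Irf8 (-0.37) were not called. A list of antioxidant genes held enzymes that remove superoxide and peroxide, and others, such as Hmox1 and Nqo1, that do not do so themselves. Of its genes, 3 of 18 were called higher and none lower (median 0.10, against -0.01 over all genes). These were Txnrd1 (thioredoxin reductase, 0.81), mitochondrial Sod2 (0.75) and Hmox1 (haem oxygenase, 0.54). With only the 6 arrays compared, Sod2 and Txnrd1 lost their calls (adjusted p = 0.0657 and 0.105), and Hmox1 lost its call also without GFK replicate 1 or 3 or any GFW array (0.0633 to 0.107).

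No member of the burst receptor list (13 genes), the Rac regulator list (11), the kinase and lipid enzyme list (16), the NADPH supply list (6) or the other subunit list (4) was called on the arrays labelled knockout. Over all genes 1.61% were called, 1.30% higher and 0.317% lower. For lists of these sizes, an absence of calls lies near those shares. Beside Cybb, 3 of 8 monocyte markers, 2 of 7 macrophage markers, 2 of 5 B cell markers, 1 of 4 eosinophil markers and 1 of 6 progenitor markers were called higher, and 0 of 8 neutrophil markers were called. The summed monocyte signal was 9308 to 9735 on GFK arrays and 7521 to 8265 on GFW arrays, and the summed macrophage signal was 5685 to 6536 on GFK and 5264 to 5566 on GFW arrays. B cell sums were 8902 to 9079 on GFK arrays and 3566 to 4220 on GFW arrays, with none of these genes under the 40th percentile. Most of the B cell sum is the signal of 1 gene, Ighm, in each of the 5 groups. Ighm averaged 13.02 log2 on GFK and 11.72 on GFW arrays, and 3 of the 5 B cell markers were not called. Their part in the Cybb result was not tested.

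The RB and GFW arrays carry the same labels, and were compared to see how far the subunits differ between sets described alike. Cybb averaged 11.79 ± 0.077 on RB arrays and 9.84 ± 0.086 on GFW arrays (SD, n = 3 each), 3.87-fold higher in RB (1.95 log2, SE 0.10, limma adjusted p = 4.85e-10). Rac2 (-0.77, SE 0.093, adjusted p = 5.56e-06), Ncf4 (-0.56, SE 0.11, adjusted p = 4.72e-04) and Cyba (-0.50, SE 0.10, adjusted p = 7.65e-04) were lower in RB, and Ncf1 was not called (-0.17, interval -0.40 to 0.06, adjusted p = 0.207). So 1 of 5 subunits was called higher and 3 lower, where 25.8% of all genes were called higher and 26.5% lower. The within-array difference of Cybb and its partner Cyba changed by 2.46 log2.

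Irf8, an interferon regulatory factor of the monocyte lineage, averaged 10.70 ± 0.072 on RB arrays and 8.99 ± 0.20 on GFW arrays (SD, n = 3 each), a difference of 1.71 log2. Of the promoter-binding factors 5 of 15 were called higher in RB and 4 lower (median -0.07, against -0.06 over all genes). These counts lie near the shares of all genes, 25.8% higher and 26.5% lower. Irf4 (1.47) and Cebpa (1.02) were higher too, while the chromatin organiser Satb1 (-1.79 or below, near background in RB), Spi1 (-0.68) and Irf1 (-0.63) were lower in RB. Of the burst receptors 1 of 13 was called higher and 11 lower (median -0.95, against -0.06 over all genes). The one higher was the high-affinity IgG receptor Fcgr1 at 3.09, and the lower ones were led by Cxcr2 (-4.80), C5ar1 (-2.43) and Fpr2 (-2.07). Of the Rac regulators 8 of 11 were called higher and 2 lower (median 0.67), with the exchange factors Tiam1 at 2.51 and Vav2 at 1.23, and Bcr at 1.25, while Arhgap25 was -1.27. Of the monocyte markers 7 of 8 were higher in RB and none lower, with sums of 30193 to 30441 on RB arrays and 7521 to 8265 on GFW arrays. Of the neutrophil markers 6 of 8 were lower and 1 higher, with sums of 6457 to 7779 on RB arrays and 34253 to 35964 on GFW arrays. Of the progenitor markers 4 of 6 were lower and none higher, with Kit, the SCF receptor, at -5.92 and sums of 423 to 523 on RB arrays and 3174 to 3503 on GFW arrays. Of the B cell markers 4 of 5 were lower and none higher, with sums of 1812 to 1985 on RB arrays and 3566 to 4220 on GFW arrays, and Cd79a and Ms4a1 ranked under the 40th percentile in RB. The part of these differences in the subunit results was not tested.

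The marrow-grown MDSC were compared with the RB set of mobilised cells first. Cybb was lower in MDSC, at 10.88 ± 0.044 on MDSC arrays and 11.79 ± 0.077 on RB arrays (SD, n = 3 each; -0.91 log2, SE 0.10, limma adjusted p = 1.75e-06). Cyba was 1.46-fold higher (0.54, SE 0.10, adjusted p = 3.55e-04) and Ncf1 1.41-fold higher (0.49, SE 0.11, adjusted p = 0.00124). Ncf4 was 1.26-fold lower (-0.34, SE 0.11, adjusted p = 0.0176), and Rac2 was not called (-0.12, interval -0.32 to 0.08). So 2 of 5 subunits were called higher and 2 lower, where 27.4% of all genes were called higher and 20.7% lower. The Ncf4 call was lost without MDSC replicate 1 or 3 or RB replicate 1 (adjusted p = 0.0638, 0.0706 and 0.0778), where only the 6 arrays compared were fitted (0.0550), and with each array minus its median (0.0528).

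Against the GFW set the same MDSC arrays gave another picture, and both comparisons share the MDSC arrays. Cybb was 2.06-fold higher in MDSC (1.04 log2, SE 0.10, limma adjusted p = 2.36e-07), and Ncf1 1.25-fold (0.33, SE 0.11, adjusted p = 0.0158). Ncf4 was 1.87-fold lower (-0.90, SE 0.11, adjusted p = 2.57e-06) and Rac2 1.85-fold lower (-0.89, SE 0.093, adjusted p = 5.55e-07). Cyba overlapped, at 11.31 ± 0.039 on MDSC and 11.27 ± 0.039 on GFW arrays (SD, n = 3 each; 0.04, interval -0.18 to 0.26, not called). Again 2 of 5 were called higher and 2 lower, where 32.3% of all genes were called higher and 30.0% lower. The sign of the MDSC difference in Cybb thus depends on which C57Bl/6 set of mobilised cells it is taken from. With each array minus its median, the median of all genes in this comparison moved by 0.12 log2 and higher genes made up 63.2% of calls, against 51.8% on the values as deposited. The Ncf1 call was lost with quantile normalisation (0.21, adjusted p = 0.132).

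Both MDSC and GFE cells were cultured, with different factors. In MDSC, Cybb was 7.85-fold higher than after culture in Flt3 ligand and SCF (2.97 log2, SE 0.10, limma adjusted p = 2.89e-12), and 1.18% of genes had a larger difference in size. Cyba was 2.11-fold higher (1.08, SE 0.10, adjusted p = 4.07e-07) and Ncf4 1.85-fold (0.89, SE 0.11, adjusted p = 6.86e-06). Rac2 was called at 0.26 (adjusted p = 0.0390), a call lost without any 1 of the 6 arrays (0.0712 to 0.120). Ncf1 was not called (0.23, interval -0.0019 to 0.46, adjusted p = 0.120). So 4 of 5 subunits were called higher, where 16.6% of all genes were called higher and 18.9% lower.

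Among the partners of the oxidase, Hvcn1 set MDSC apart. It encodes the voltage-gated proton channel that carries out the charge left behind by the oxidase's electrons. It stood at 9.21, 9.002 and 9.04 log2 on the MDSC arrays, 6.78, 6.63 and 6.81 on the GFE arrays, 6.93, 6.81 and 6.95 on the GFK arrays, 6.56, 6.53 and 6.64 on the RB arrays, and 6.75, 6.92 and 6.93 on the GFW arrays. Every MDSC array lay above every other array. The MDSC difference was 2.51 against RB (limma adjusted p = 1.46e-11), 2.22 against GFW (4.20e-11) and 2.34 against GFE (3.22e-11).

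Rap1b, a small GTPase related to the Rap1A that copurifies with the flavocytochrome of human neutrophils, was lower in MDSC than in RB (-0.80) and GFW (-1.06). Cybc1, the chaperone needed for stable gp91phox, was lower too (-0.94 against RB and -1.04 against GFW). Its values were 7.32, 7.68 and 7.54 log2 on MDSC arrays, against 8.56, 8.58 and 8.21 on RB arrays and 8.51, 8.36 and 8.78 on GFW arrays. Rac1 differed by -0.13 against RB and was not called, while its -0.26 against GFW was called (adjusted p = 0.0285) but not without MDSC replicate 2 or 3 or GFW replicate 1 (0.0747 to 0.0938), nor with each array minus its median (-0.13, adjusted p = 0.281).

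**Figure D3:**
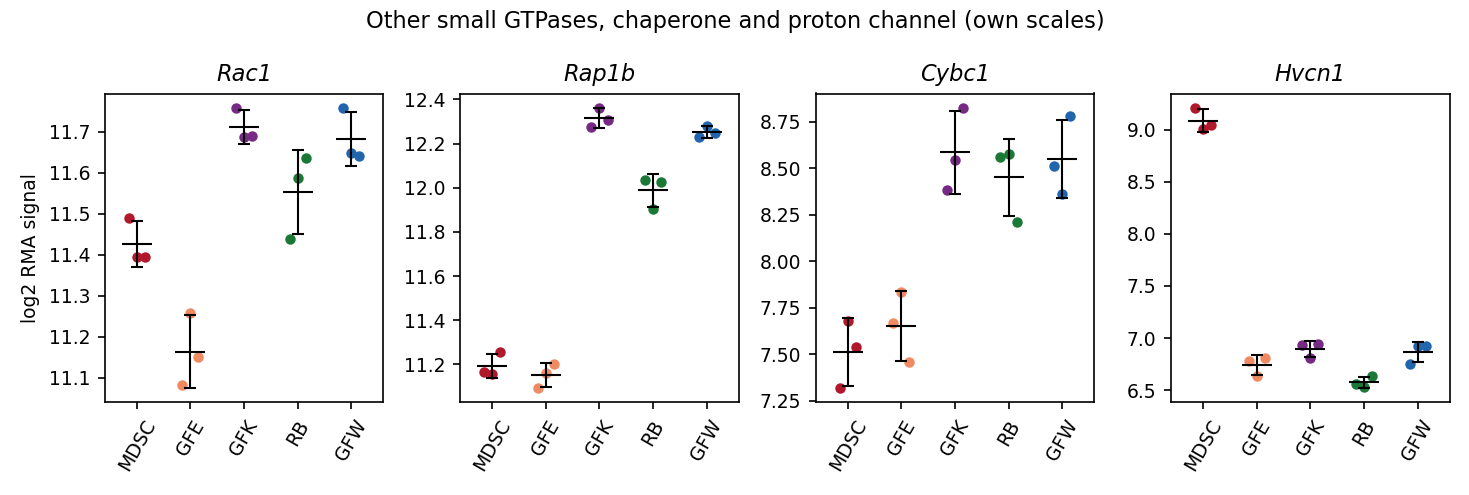
Log2 RMA signal of 4 partners of the oxidase on the 15 arrays, by group (points are arrays, bars the group mean and SD of n = 3; each panel has its own vertical scale). Hvcn1 lies between 9.002 and 9.21 on the MDSC arrays and at 6.95 or below on the other 12.

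The regulatory lists were also compared between MDSC and the other sets. Over all genes, 27.4% were called higher and 20.7% lower against RB, 32.3% and 30.0% against GFW, and 16.6% and 18.9% against GFE. Of the Rac regulators 0 of 11 were called higher and 9 lower against RB (median -1.19, against 0.04 over all genes), among them the exchange factors Tiam2 (-2.04), Prex1 (-1.43) and Dock2 (-1.34) and the Rac GTPase activator Arhgap15 (-1.54). Against GFW 1 Rac regulator was higher and 7 lower (median -0.67), and against GFE 2 were higher and 2 lower (median -0.07). Of the kinases and lipid enzymes 2 of 16 were higher and 11 lower against RB (median -0.67). Among these were the protein kinase C gene Prkcb at -1.55, Syk at -1.43, Pik3cd at -1.05 and Mapk14 at -0.81. In the kinase list 2 were higher and 9 lower against GFW (median -0.33), and 4 higher and 3 lower against GFE (median 0.04). Of the burst receptors 2 of 13 were higher and 7 lower against RB (median -0.28), with Fcgr1 at -1.78, Fpr2 at -1.50, Itgam at -1.06 and the platelet-activating factor receptor Ptafr at -1.04. Against GFW 1 was higher and 12 lower (median -1.35), with Cxcr2 at -4.37, Fpr2 at -3.57, Fcgr4 at -2.98 and C5ar1 at -2.30. Against GFE 12 of 13 were higher and none lower (median 2.38), led by Clec7a at 5.34 or more, C5ar1 at 3.57 or more, Fcgr3 at 3.47 and Fcgr4 at 2.96 or more.

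Of the promoter-binding factors 2 of 15 were higher and 10 lower in MDSC than in RB (median -0.54). Of all genes 27.4% were called higher and 20.7% lower there. Irf8 was -2.10, Irf1 -1.47 and Spi1 -0.54, whereas Cebpe, a factor of the granule-forming stage of neutrophils, was 2.20 higher and Tal1, a factor of blood progenitors, at least 1.21 higher. Spi1 averaged 10.15 ± 0.14 on MDSC arrays and 10.70 ± 0.047 on RB arrays (SD, n = 3 each). Cebpe was also 2.13 higher in MDSC than in GFW and 3.62 higher than in GFE. Of the 15 factors 3 were higher than in GFW and 8 lower (median -0.35), where 32.3% of all genes were higher and 30.0% lower. Against GFE 6 were higher and 7 lower (median -0.35), where 16.6% of all genes were higher and 18.9% lower. The peroxidase Mpo, which turns the oxidase's peroxide into hypochlorous acid, was 4.08 higher in MDSC than in RB, 3.52 than in GFW and 3.91 than in GFE.

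**Figure D4:**
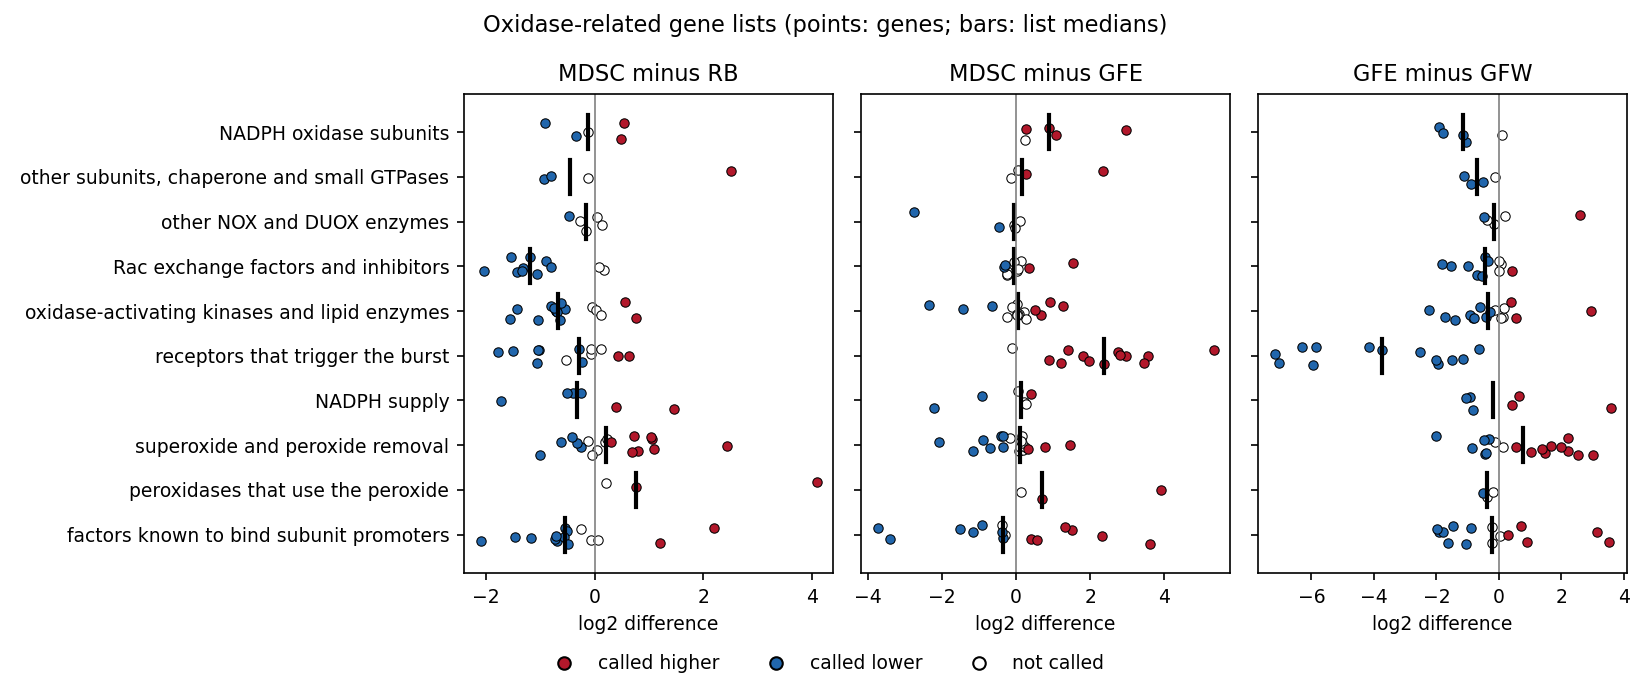
Log2 differences of the genes in 10 oxidase-related lists in 3 comparisons (points are genes, jittered vertically; black bars are list medians; red called higher, blue called lower, white not called). The burst receptors have medians of -0.28 in MDSC minus RB, 2.38 in MDSC minus GFE and -3.73 in GFE minus GFW.

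Cell type markers differed between MDSC and each of the other 3 sets they were compared with. Their counts are to be read against the shares of all genes called. These were 27.4% higher and 20.7% lower against RB, 32.3% and 30.0% against GFW, and 16.6% and 18.9% against GFE. Of the monocyte markers 7 of 8 were lower in MDSC than in RB and none higher, with sums of 7912 to 8440 on MDSC and 30193 to 30441 on RB arrays. Of the neutrophil markers 4 of 8 were higher and 3 lower, with sums of 11948 to 12847 on MDSC and 6457 to 7779 on RB arrays, and Retnlg ranked under the 40th percentile in MDSC. Of 6 progenitor markers, which include Mpo, 4 were higher and 1 lower (3391 to 3553 on MDSC and 423 to 523 on RB arrays). Of the macrophage markers 1 of 7 was higher, Mrc1 (11.15 on MDSC and 6.76 on RB arrays), and 4 were lower. Their sums were 7376 to 7908 on MDSC and 6534 to 6828 on RB arrays. Of the mast cell and basophil markers tested, 2 of 2 were higher in MDSC than in RB, in GFW and in GFE. Of 4 eosinophil markers 2 were higher against RB, 2 against GFW and 3 against GFE, and 2 were lower against GFW.

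Against GFW, 2 of 8 neutrophil markers were higher in MDSC and 5 lower, with sums of 11948 to 12847 on MDSC and 34253 to 35964 on GFW arrays. Of the monocyte markers 2 of 8 were higher and 3 lower (7912 to 8440 on MDSC and 7521 to 8265 on GFW arrays). These counts lie near the shares of all genes, 32.3% higher and 30.0% lower. Most of the monocyte sum on MDSC arrays is the signal of 1 gene, Ly6c2, which averaged 12.69 there and 11.70 on GFW arrays. Treml4 averaged 6.78 on MDSC and 10.45 on GFW arrays, and Nr4a1 6.89 and 10.57. Of the progenitor markers 1 of 6, Mpo, was higher and 3 lower (3391 to 3553 on MDSC and 3174 to 3503 on GFW arrays). These like sums come from different genes. Mpo averaged 11.38 on MDSC and 7.85 on GFW arrays, whereas Kit averaged 8.96 on MDSC and 11.43 on GFW arrays. All 5 B cell markers were lower (852 to 947 on MDSC and 3566 to 4220 on GFW arrays). Of the macrophage markers 2 of 7 were higher and 4 lower (7376 to 7908 on MDSC and 5264 to 5566 on GFW arrays). Mrc1 averaged 11.15 on MDSC and 7.55 on GFW arrays. Against GFE, 7 of 8 neutrophil markers were higher in MDSC and none lower, with sums of 11948 to 12847 on MDSC and 461 to 519 on GFE arrays. Of the monocyte markers 5 of 8 were higher and 2 lower (7912 to 8440 on MDSC and 938 to 1051 on GFE arrays). Of the macrophage markers 4 of 7 were higher and 1 lower (7376 to 7908 on MDSC and 2275 to 2503 on GFE arrays). Of the progenitor markers 1 of 6, again Mpo, was higher and 5 lower (3391 to 3553 on MDSC and 6068 to 6396 on GFE arrays). Their part in the subunit results was not tested.

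Whether the subunits moved by unequal amounts was read from within-array differences of pairs, 10 pairs in each of 6 comparisons. Levels of different probe sets were not compared, only their changes. An exact permutation test of 3 arrays against 3 cannot go below p = 0.10 (two-sided), so none of the 60 tests can pass (lowest adjusted p over the 60 tests 0.128). Cybb against Ncf1 changed by -2.03 log2 after culture and by 2.74 in MDSC against GFE. For Ncf4 against Rac2 the change differed by -0.0141 log2 in MDSC against GFW (exact permutation p = 1) and by -0.64 after culture (exact permutation p = 0.10).

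The genes with profiles most like each subunit were taken as those with the smallest root mean square difference over the 15 arrays, after each gene's mean was removed. For Cybb these were Stom, which encodes the membrane protein stomatin (0.22 log2), Cd80, a T cell co-stimulatory ligand (0.34), and Ctsc, the protease cathepsin C (0.398), where Cybb itself varied by 1.30 about its mean. Stom averaged 10.69 on MDSC, 7.45 on GFE, 10.04 on GFK, 11.07 on RB and 9.64 on GFW arrays, the same order as Cybb. For Cyba they were Prelid1 (0.10), Ckap4 (0.13) and Tmem9b (0.13), with Cyba itself at 0.42. For Ncf4 they were Inpp5a (0.098), Gyg (0.11) and Fuca1 (0.13), with Ncf4 at 0.68, and for Rac2 Rnf13 (0.089), Spryd3 (0.11) and Notch1 (0.12), with Rac2 at 0.47. Ncf1 varied by 0.20 about its mean, and its nearest genes Aff1, Cacul1 and Pdzd8 lay 0.12 from it, so likeness says least for Ncf1.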

How the data were processed

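RNA was labelled with biotin from 6 ug of total RNA, per the labels' protocols. The deposited values are log2 signals made with RMA in the oligo package, per the submitters' processing notes, without versions. RMA subtracts a background model, gives all arrays about the same distribution by quantile normalisation and combines the probes of a set, which can dampen differences shared by most genes. The array limits precision by its 3 samples per group. Of 41345 probe sets, 23521 had 1 gene symbol, 1814 several and 16010 none, and 23328 of the first kind matched RefSeq of GRCm38.p6 by gene identifier. The probe set with the highest mean stood for a gene. A gene was tested if it lay above the 40th percentile of the single-symbol probe sets (5.34 to 5.58 log2) on 3 arrays or more, as 14822 of 22180 genes did. Differences with the lower mean under that percentile are given as "at least". Differences without it are as measured.

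One limma model (version 3.58.1, R 4.3.3; lmFit, then eBayes) held a mean for each of the 5 groups over all 15 arrays, with 10 residual degrees of freedom and 5.33 from the prior, with Benjamini-Hochberg adjustment over all genes tested, two-sided, and a call at an adjusted p under 0.05. Named were the 5 subunits, the most changed called members (at most 4) of each list whose counts are given in a comparison, with further members as values, and the 3 nearest profiles per subunit, leaving out predicted gene models. Some list counts for MDSC against GFW and GFE are given without naming members. The subunits, lists and tests were chosen with earlier results of these data known. The comparisons share arrays. Tested on simulated data of 14822 genes, for GFK minus GFW, the model called 26% of genes changed by 0.5 log2 and 92% of those changed by 1. Replicate numbers did not pair the samples (same-number correlations of deviations from -0.129 to 0.0966). Alternatives were other filters, scalings, variance models, probe rules, a 1.5-fold threshold, a replicate block, fewer arrays and each array left out. Python 3.11.15, numpy 2.4.6, pandas 2.3.3, scipy 1.17.1 and matplotlib 3.10.9 were also used.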

Additional observations from a re-analysis of the deposited data

How the results depend on the processing

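Of 490 values of the 5 subunits under alternatives, 461 kept their direction and side of the threshold, 26 lost their call, 1 gained one and 2 turned sign, and the causes were not tested. The calls of Cybb, Cyba, Ncf4 and Rac2 after culture held under all alternatives run, with Cybb between -2.07 and -1.79 and Ncf4 between -1.87 and -1.66. Where only the 6 arrays compared were fitted, Ncf4 in MDSC minus RB (-0.34) and Cybb in GFK minus GFW (0.68) were lost, and GFK minus GFW had 72 genes higher and 2 lower, against 192 and 47. That lower count was 30 with no filter, 29 with each array minus its median, 79 with trend and robust, and 28 with weights by group. Without single arrays it was 27 to 42, and the higher count 102 to 150. Rac2 in MDSC minus GFE was lost with no filter (0.26), with each array minus its median (0.25) and with quantile normalisation (0.17), and ran from 0.24 to 0.28 without single arrays. Ncf4 in MDSC minus RB was lost with each array minus its median (-0.28), and ran from -0.41 to -0.26 without single arrays. Quantile normalisation ended the Ncf1 call in MDSC minus GFW (0.21) and turned Cyba there, not called, to -0.041. Weights by group called Ncf1 in MDSC minus GFE (0.23, adjusted p = 0.0389). Without GFW replicate 1, Ncf4 in GFK minus GFW, not called, turned to -0.014 (range -0.014 to 0.13).

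Tested against a 1.5-fold difference, with differences as fitted, calls were lost for Ncf4 (0.89) and Rac2 (0.26) in MDSC minus GFE, Cyba (0.54), Ncf1 (0.49) and Ncf4 (-0.34) in MDSC minus RB, Ncf1 (0.33) in MDSC minus GFW, Cybb (0.68) in GFK minus GFW, and Cyba (-0.50), Ncf4 (-0.56) and Rac2 (-0.77) in RB minus GFW. Over all genes, higher and lower counts were then 774 and 712 for MDSC minus GFE, 1449 and 1008 for MDSC minus RB, 2456 and 1193 for MDSC minus GFW, 2808 and 1425 for GFE minus GFW, 14 and 0 for GFK minus GFW, and 1198 and 727 for RB minus GFW.

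With the replicate number as a block, all 30 subunit results kept their call and direction, and GFK minus GFW had 160 genes higher and 42 lower. Same-number samples did not deviate together. Of 2470 values of genes named from the lists, 121 lost their call and none turned sign. Each subunit has 1 probe set, so the mean of probe sets changes no subunit value. The subunits lie far above background, so low signal does not limit them. Rac2 ranked from the 99.2 to the 99.9th percentile of probe sets, and whether its changes are compressed at that level was not tested.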

Other observations

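Nox1, a relative of Cybb known from colon epithelium, stood at 7.57, 7.51 and 7.42 log2 on the cultured GFE arrays, against 4.90, 4.95 and 4.84 on the GFW arrays (limma adjusted p = 1.65e-11). The difference of at least 2.60 log2 is a bound, since Nox1 ranked near background on the GFW arrays, and likewise on the MDSC, GFK and RB arrays. It was the 1 of 5 other NOX and DUOX genes tested that was called higher after culture, and Duox1 was called lower (-0.47 or below). Over all genes 35.1% were called higher and 31.9% lower, shares that these counts do not exceed. The Duox1 call was lost with each array minus its median (-0.33, limma adjusted p = 0.0532) and with quantile normalisation (-0.31, adjusted p = 0.0630). So Nox1 was high on the arrays where Cybb was lowest.

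Of the antioxidant genes, not all of which remove superoxide or peroxide themselves, 10 of 18 were called higher after culture and 6 lower. Their median was 0.79 log2, against -0.06 over all genes, of which 35.1% were called higher and 31.9% lower. Catalase (Cat) averaged 11.10 ± 0.015 after culture and 8.08 ± 0.40 on GFW arrays (SD, n = 3 each), a difference of 3.02. Nqo1 (2.53), Gclc of glutathione synthesis (2.22) and mitochondrial Prdx3 (2.22) were higher as well, while glutathione reductase (Gsr) fell by 2.01. Of the genes that supply NADPH, 3 of 6 were higher and 3 lower after culture (median -0.20), to be read against the same shares of all genes. Malic enzyme Me1 was higher by at least 3.58. Taldo1 (-1.04) and Pgd (-0.91) of the pentose phosphate pathway and the NAD kinase Nadk (-0.82) were lower.

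In MDSC against RB, Gclm, the regulatory partner of Gclc, was 2.44 higher, mitochondrial Sod2 1.09 higher and Nadk 1.73 log2 below, at 8.54 ± 0.078 on MDSC and 10.27 ± 0.10 on RB arrays (SD, n = 3 each).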
